A study of Danio rerio with 12 samples.

Results

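Enzymes that handle methionine and its products were followed in the liver of zebrafish fed a diet with or without maize. The group comprised mat1a, gnmt, ahcy and bhmt of the methionine cycle, cbsb and cth of transsulfuration, and amd1 and odc1 of polyamine synthesis. Members were chosen by gene symbol, with earlier results of these data known. All 8 of the 8 listed genes were measured, by 13 probes, among 6684 named genes and 12275 probes in all. Transcript levels of mat1a, cbsb, cth and amd1 were 1.66 to 1.99-fold lower on the maize diet over both sexes. Those of gnmt, ahcy, bhmt and odc1 did not pass the test. Of all genes 4.94% passed in either direction and 2.8% passed as lower. In the 12 fits that left out 1 pool each, cbsb and amd1 always passed, whereas mat1a and cth passed in 2 each. Between 1.3% and 8.11% of all genes passed in these fits. After the arrays were scaled to the same spread, none of the 8 genes and 0% of all genes passed for the diet over both sexes.

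In the liver, methionine is activated to S-adenosylmethionine, the universal methyl donor, and methyl transfer leaves S-adenosylhomocysteine, which is split into adenosine and homocysteine. Homocysteine is either remethylated to methionine or condensed with serine and passed through transsulfuration to cysteine, the building block of glutathione and taurine. S-adenosylmethionine is also decarboxylated to donate the aminopropyl groups with which putrescine, the product of ornithine decarboxylation, is built up to spermidine and spermine.

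The fish were wild type zebrafish of the AB strain, fed for 28 days on diets with 0% or 25% maize, in which the maize replaced wheat at equal energy, and all groups also received Artemia. According to the methods, livers of several fish were pooled by sex within each replicate tank, and a tank held both sexes. The 12 two-colour arrays held 12 pools, 3 for every combination of sex and diet, each in 1 dye on 1 array and in the opposite dye on another, and every array set 1 pool of the 0% diet against 1 of the 25% diet. Pools carry the replicate numbers of the labels, abbreviated R1 to R4, which name tanks within a diet. The methods give more replicates per diet than the 3 pools per group that the labels name, and the sources used here do not say why. P-values measure the spread among these pools. A female and a male pool of 1 tank were fitted as independent, since the estimated tank variance was 0. That estimate rests only on tanks with pools of both sexes on the arrays and does not settle whether such pools are independent. With tank variance set equal to pool variance, 144 instead of 330 genes passed for the diet over both sexes.

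Values are log2 ratios of the dyes and hold no absolute amounts, so levels of different genes cannot be set against each other. The level of a pool was solved from the closed loop of arrays and is given relative to the average pool. The direction of the deposited ratio is likely Cy5 over Cy3, since with that reading all 470 values of 47 vitellogenin probes on the 10 arrays with both sexes were higher in the female pool, by 1.41 or more on the log2 scale, vitellogenins being the oestrogen-dependent yolk precursors of the female liver. Base 2 was assumed. Of the 12 arrays, 5 set female 25% pools against male 0% pools and 5 male 25% pools against female 0% pools. Only 2 arrays compared diets within 1 sex, and these alone link both sets of 5 arrays. Their error shifts the female 25% and male 0% pools together against all others. It cancels in the diet effect taken over both sexes, but not in the effects within a sex, and it is not visible in the SD among pools of a group. The difference of the effects within a sex had a standard error 2.68 times that of the effect over both sexes. Part of this ratio comes from the weights alone, since the former is a full difference and the latter a mean of both effects.

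Marker lists described the pools. Lists are given as the mean log2 level of their measured genes. The ovary and oocyte list (18 genes measured of 23) was 3.47 ± 0.23 (SE) higher in female than male pools, ranging from 1.09 to 2.43 in the 6 female pools and from -2.02 to -1.10 in the 6 male pools. The hepatocyte list (18 of 19) was lower by a log2 difference of -1.42 ± 0.07, with 16 genes lower and 1 higher. Since these are bulk ratios, fewer cells of a type and less RNA per cell cannot be told apart. Between diets over both sexes the hepatocyte list moved by 0.08 (95% confidence interval -0.06 to 0.22) and the ovary and oocyte list by -0.07 (-0.56 to 0.42). Larger values were 0.58 (-0.18 to 1.34) for endocrine pancreas, 0.34 (-0.04 to 0.73) for erythrocytes and -0.20 (-0.50 to 0.11) for vitellogenins. Exocrine pancreas moved by 0.11, intestine by 0.16 and leukocytes by 0.06. All 6 measured genes were above 0 in the endocrine pancreas list, as were all 6 in the erythrocyte list. No gene of the ovary, pancreas, intestine, erythrocyte or leukocyte lists passed the test. Of the hepatocyte genes 2 passed, named after their values were seen, rbp4 at 0.83 (adjusted p = 0.0152, limma) and apobb.1 at 0.50 (0.00782), both higher on the maize diet. Within females the hepatocyte list moved by 0.28 (0.05 to 0.51), with apobb.1 past the test, and the intestine list by 1.09 (0.03 to 2.15), with no gene past it. Within males these lists moved by -0.11 (-0.35 to 0.12) and -0.76 (-1.82 to 0.30), with no gene past the test. The ovary and oocyte list moved by -0.54 (-1.36 to 0.28) in females and 0.40 (-0.42 to 1.22) in males. Error of the 2 arrays within a sex enters these values with opposite signs in females and males, and its part was not tested.

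**Figure D1:**
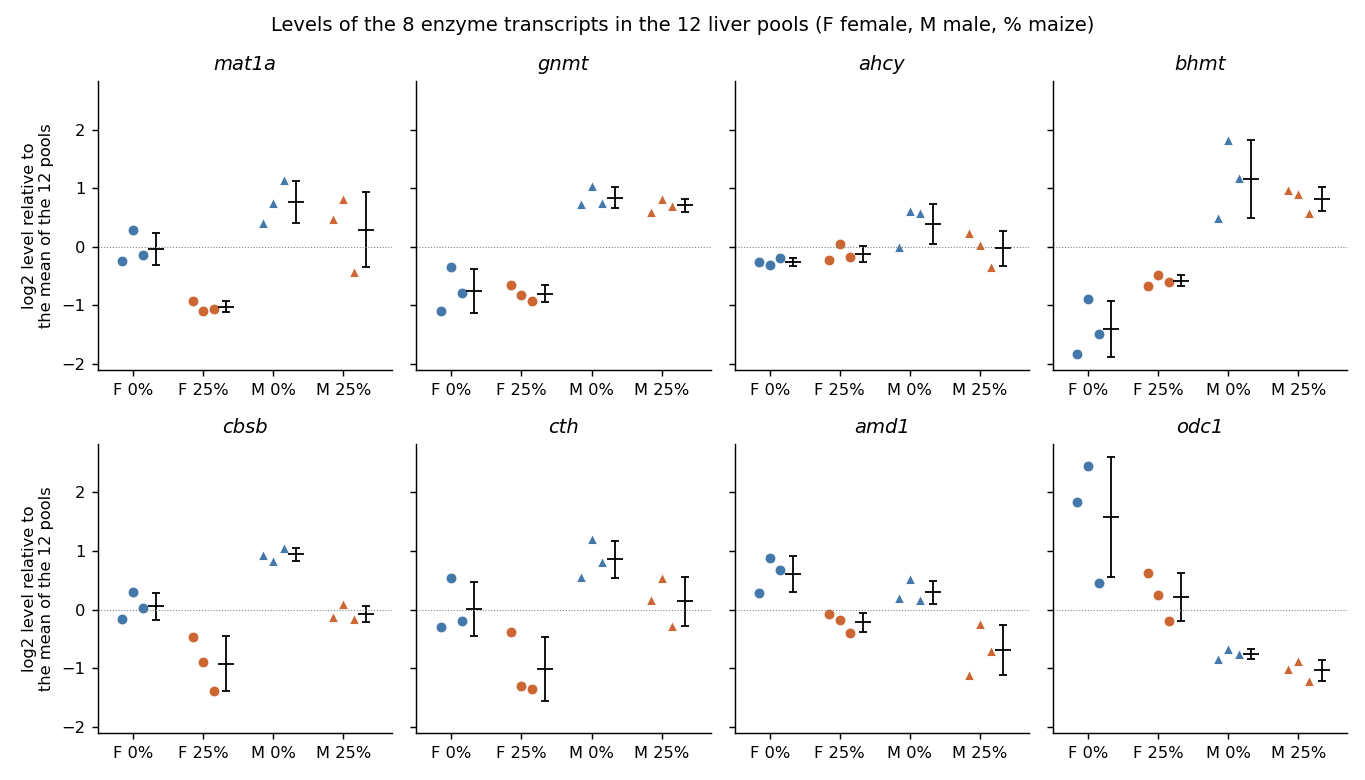
Level of each enzyme transcript (log2, relative to the mean of the 12 pools) in each pool, with circles for females (F), triangles for males (M), blue for 0% and orange for 25% maize, and the mean ± SD of the 3 pools beside them. The 25% pools of cbsb, cth and amd1 lie below the 0% pools of the same sex, while bhmt, gnmt and odc1 separate by sex.

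The first step of the methionine cycle is carried by mat1a, the methionine adenosyltransferase of adult liver. Its log2 level in the 0% female pools R1, R2 and R3 was -0.24, 0.28 and -0.14, and in the 25% female pools R2, R3 and R4 it was -0.92, -1.09 and -1.06. In males it was 0.41, 0.75 and 1.13 in the 0% pools R1, R3 and R4, and 0.47, 0.82 and -0.42 in the 25% pools R1, R2 and R3. The female pools of the diets did not overlap, whereas in males only the 25% pool R3 lay below the 0% pools. Over both sexes mat1a fell by 0.73 ± 0.18 (SE) on the log2 scale, 1.66-fold, with adjusted p = 0.0399 (limma). Among all 6684 genes 4.94% passed in either direction and 2.8% were lower. Both probes of mat1a were lower, by -0.87 (adjusted p = 0.0491 over the probes) and -0.59 (adjusted p = 0.109), where 2.02% of all probes passed as lower. The call was lost without any 1 of 10 pools (change -0.80 to -0.60, adjusted p 0.0698 to 0.180) and was kept only without the 0% female R3 or the 25% male R2 pool. With tank variance set equal to pool variance the call of mat1a was also lost (adjusted p = 0.0770, limma).

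Glycine N-methyltransferase, encoded by gnmt, consumes surplus S-adenosylmethionine and makes sarcosine. Its level was -1.10, -0.35 and -0.79 in the 0% female pools and -0.65, -0.82 and -0.93 in the 25% female pools. Male pools stood at 0.74, 1.04 and 0.74 on the 0% diet and 0.60, 0.82 and 0.70 on the 25% diet. Pools of the diets overlapped in both sexes, and the diet change was -0.09 (-0.34 to 0.15, adjusted p = 0.782, limma). Its pair of probes gave 0.01 and -0.20.

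Adenosylhomocysteinase, encoded by ahcy, splits S-adenosylhomocysteine and so lifts the product inhibition of methyltransferases. Levels were -0.27, -0.31 and -0.18 in the 0% female pools, -0.22, 0.04 and -0.17 in the 25% female pools, 0.00, 0.61 and 0.57 in the 0% male pools and 0.23, 0.04 and -0.35 in the 25% male pools. The diets overlapped in both sexes, with a change of -0.14 (-0.39 to 0.10, adjusted p = 0.627, limma). Its 3 probes were the most discordant of the group, differing by up to 0.98 in a single pool. The 0% male R3 pool stood at 1.26 with 1 probe against 0.30 and 0.28 with the others.

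Betaine-homocysteine methyltransferase, encoded by bhmt, remethylates homocysteine with betaine as the donor. Its levels were -1.83, -0.88 and -1.48 in the 0% female pools and -0.66, -0.47 and -0.60 in the 25% female pools. In males they were 0.49, 1.82 and 1.18 on the 0% diet and 0.96, 0.90 and 0.58 on the 25% diet. In females all 25% pools lay above the 0% pools, and in males the diets overlapped. The share of all genes with this order in females was not counted, and 9.95% had the opposite order. Over both sexes the change was 0.24 (-0.20 to 0.67, adjusted p = 0.656, limma), the only positive value among the 8 genes.

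Cystathionine beta-synthase, which commits homocysteine to transsulfuration, is represented by cbsb. Its level was -0.16, 0.29 and 0.03 in the 0% female pools and -0.47, -0.90 and -1.40 in the 25% female pools. In males it was 0.93, 0.83 and 1.05 on the 0% diet and -0.13, 0.09 and -0.17 on the 25% diet. The diets did not overlap in either sex, and the male pools of each diet lay close together (SD 0.11 and 0.14). Over both sexes cbsb fell by 0.99 ± 0.13 (SE), 1.99-fold, with adjusted p = 0.00391 (limma). Only 0.0299% of all genes had a lower diet change. Leaving out each pool in turn moved the change between -1.10 and -0.88 and the adjusted p between 0.00677 and 0.0289.

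Cystathionine gamma-lyase, encoded by cth, releases cysteine in the next step. Levels were -0.30, 0.54 and -0.20 in the 0% female pools and -0.39, -1.30 and -1.35 in the 25% female pools. Male pools stood at 0.56, 1.195 and 0.82 on the 0% diet and at 0.16, 0.55 and -0.29 on the 25% diet. No pools of the diets overlapped within a sex, but the nearest ones almost touched. Over both sexes cth fell by 0.87 ± 0.20 (SE), 1.83-fold, with adjusted p = 0.0351 (limma), and its probes fell by 0.96 and 0.78 (adjusted p = 0.0520 and 0.0382 over the probes). As for mat1a, the call was lost without any 1 of 10 pools (change -0.91 to -0.75, adjusted p 0.0562 to 0.173), the exceptions being the 25% pools R2 of females and of males. It was also lost with tank variance set equal to pool variance (adjusted p = 0.0567, limma).

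S-adenosylmethionine decarboxylase, encoded by amd1, supplies the aminopropyl donor of polyamine synthesis. Its level was 0.27, 0.88 and 0.67 in the 0% female pools and -0.07, -0.18 and -0.39 in the 25% female pools. In males it was 0.20, 0.52 and 0.17 on the 0% diet and -1.11, -0.25 and -0.71 on the 25% diet. The diets were apart in both sexes. Over both sexes amd1 fell by 0.91 ± 0.13 (SE), 1.87-fold, with adjusted p = 0.00514 (limma), and without each pool in turn by 0.82 to 1.01 (adjusted p 0.00348 to 0.0323). It was the only one of the 8 genes with a lower 25% pool on all 12 arrays, whatever the sexes compared, with ratios from -2.08 to -0.18, which held for 0.823% of all genes.

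Ornithine decarboxylase, encoded by odc1, makes putrescine and is the classical rate-limiting enzyme of the pathway. Female levels were 1.84, 2.45 and 0.45 in the 0% pools, the widest spread of any group of the 8 genes (SD 1.02), and 0.61, 0.24 and -0.20 in the 25% pools. Male levels were -0.85, -0.67 and -0.76 on the 0% diet and -1.01, -0.88 and -1.22 on the 25% diet. The female diets overlapped through the 0% pool R3. The male diets did not overlap, but the nearest pools almost touched, at -0.85 and -0.88. Over both sexes the change was -0.82 (-1.39 to -0.25, adjusted p = 0.103, limma), about as large as in amd1 with a SE of 0.26 against 0.13. It passed in 1 of the 12 fits that left out a pool, without the 0% female R3 pool (-1.11, adjusted p = 0.0123). In the other 11 fits it lay between -0.95 and -0.61, with adjusted p from 0.0598 to 0.360.

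The 8 genes were chosen with earlier results of these data known, so their distance from all genes is only a description. Their median diet change was -0.78 over both sexes against -0.01 over all genes. Of the 8 genes 7 were below 0, as were 52.4% of all genes. A level lower in every 25% pool than in every 0% pool was found in females for mat1a, cbsb, cth and amd1, where 9.95% of all genes showed it, and in males for cbsb, cth, amd1 and odc1, where 10.6% did. In both sexes at once it held for cbsb, cth and amd1, and for 1.94% of all genes. The error of the 2 arrays within a sex, which link the others, enters each of these orders. After scaling the arrays to the same spread, no gene of the table passed for the diet over both sexes. The changes were then -1.15 in cbsb and -0.96 in amd1 (adjusted p = 0.209 each, limma). Before scaling, the spread of single arrays (median absolute deviation) ran from 0.162 to 0.667, and its part in the lost calls was not tested.

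**Figure D2:**
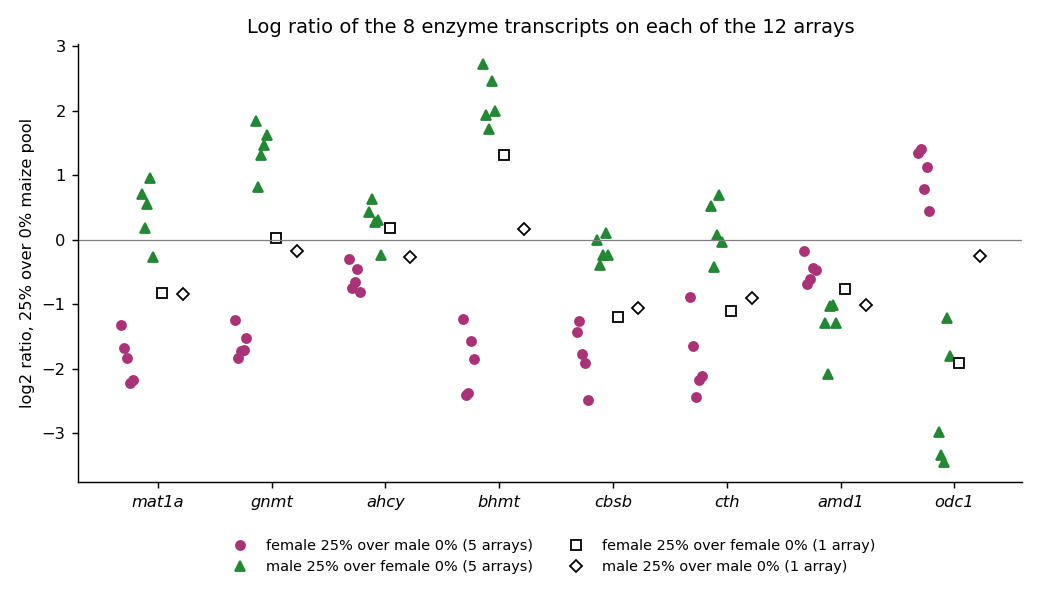
Log2 ratio of the 25% over the 0% maize pool for each enzyme transcript on each of the 12 arrays, with symbols for the sexes compared. The ratios of amd1 are below 0 on all arrays, those of cbsb on 11, whereas those of gnmt, bhmt and odc1 change sign with the sexes compared.

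Single arrays gave ratios of a 25% over a 0% pool without a model and without a correction for dye. On the 10 arrays with both sexes these ratios hold the sex difference as well as the diet. Ratios of cbsb were lower in the 25% pool on 11 of 12 arrays. The exception was 0.10 on an array of a male 25% against a female 0% pool. Ratios were lower on 9 arrays for cth, 8 for mat1a, 7 for ahcy and odc1, 6 for gnmt and 5 for bhmt. All 5 arrays of a female 25% against a male 0% pool were lower for mat1a, gnmt, ahcy, bhmt, cbsb and cth. In the opposite set of 5 arrays, 4 were lower for cbsb, 2 for cth, 1 for mat1a and ahcy, and 0 for gnmt and bhmt. For odc1 the sign also changed with the sexes, with 0 arrays lower in the former set and 5 in the latter. For amd1 5 were lower in each set. The shares of all genes with these counts were not determined. On the single array within females (25% R4 over 0% R1) the ratio was -1.20 for cbsb, -1.11 for cth, -0.83 for mat1a, -0.76 for amd1 and -1.91 for odc1. The single array within males (25% R3 over 0% R1) gave -1.06, -0.90, -0.84, -1.01 and -0.25 for the same genes. On these arrays gnmt stood at 0.03 and -0.18, ahcy at 0.18 and -0.27, and bhmt at 1.31 and 0.17. Both arrays within a sex held the 25% pool in Cy5 and the 0% pool in Cy3, so dye and diet cannot be told apart in their ratios.

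**Figure D3:**
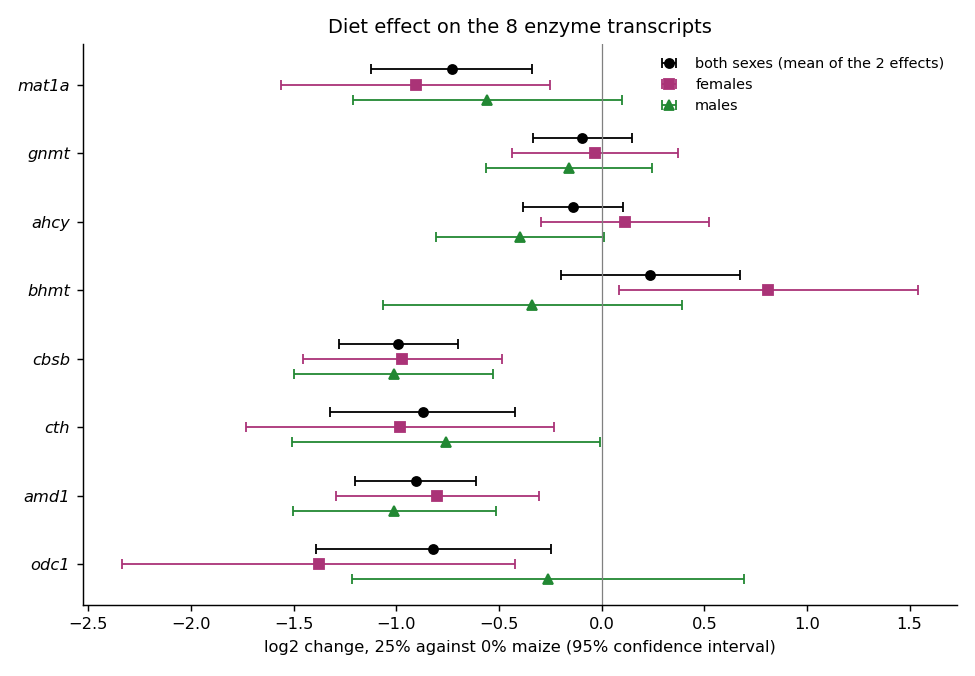
Log2 change of each enzyme transcript on the 25% against the 0% maize diet, over both sexes (black), in females and in males, with 95% confidence intervals. The intervals within a sex are wider, and those of both sexes overlap for each gene.

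Within each sex none of the 8 genes passed the limma test at an adjusted p of 0.05, although 6 in females and 3 in males had an unadjusted p below it, as had 15.2% and 10.8% of all genes. After adjustment 1.32% of all genes passed in females and 0.0299% in males. In females the changes were -0.97 for cbsb (adjusted p = 0.0611), -0.98 for cth (0.188), -0.91 for mat1a (0.175), -0.80 for amd1 (0.114), -1.38 for odc1 (0.158) and 0.81 for bhmt (0.270). In males they were -1.01 for cbsb and -1.01 for amd1 (0.0905 each), -0.76 for cth (0.455), -0.56 for mat1a (0.561), -0.40 for ahcy (0.475) and -0.26 for odc1 (0.909). Single pools moved these values. In females, leaving out each pool in turn took odc1 from -2.24 (without the 0% male R1 pool) to -0.41 (without the 0% female R1 pool), cth from -1.52 to -0.53 without the same pools, and bhmt from 0.42 (without the 25% female R4 pool) to 1.21 (without the 25% male R3 pool). In males odc1 ran from -0.98 without the 0% female R1 pool to 0.74 without the 0% male R1 pool, so that its sign was not settled, and cth from -1.25 to -0.30 without the same pools. Changes of cbsb stayed between -1.25 and -0.65 in females and between -1.34 and -0.71 in males, and those of amd1 between -1.01 and -0.60 and between -1.22 and -0.79. Of all these fits, a member passed only without the 0% female R2 pool, where amd1 was at -0.65 in females (adjusted p = 0.0437) and -1.03 in males (0.0340). Without that pool 5.58% of all genes passed in females and 0.165% in males.

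The difference between the female and male diet effects passed for none of the 8 genes and for 0% of all genes (limma), while 598 genes, no member among them, had an unadjusted p below 0.05. It was nearest to the threshold for bhmt, at 1.15 with an interval of -0.02 to 2.32. For odc1 the difference was -1.12 (-2.65 to 0.41). For cbsb it was 0.04 (-0.73 to 0.82) and for amd1 0.21 (-0.58 to 1.00), and these intervals leave room for effects that differ between the sexes. Marker lists moved in the same contrast, with 1.85 (0.15 to 3.55) for intestine, 0.39 (0.02 to 0.77) for hepatocytes and -0.94 (-2.26 to 0.38) for ovary and oocytes, and their part in the values of single enzymes was not tested.

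All 8 genes passed the test between females and males, as did 70.3% of all genes. The 6 enzymes from mat1a to cth were lower in females, where 32% of all genes were lower, and both genes of polyamine synthesis were higher. Among the lower genes the difference was largest for bhmt, at -2.00 ± 0.20 (SE, 4.00-fold lower, adjusted p = 1e-05, limma), and for gnmt, at -1.53 ± 0.11 (2.88-fold lower, adjusted p = 1.03e-06). Every female pool lay below every male pool for these genes, as for 16.4% of all genes. The differences were -1.09 for mat1a (adjusted p = 0.000291), -0.99 for cth (0.00137), -0.84 for cbsb (0.000217) and -0.40 for ahcy (0.00851), 1 of whose 3 probes did not pass (-0.30, adjusted p = 0.251).

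For odc1 the level was higher in females by 1.78 ± 0.27 (SE, 3.43-fold, adjusted p = 0.000137, limma), and every female pool lay above every male pool, as for 22.2% of all genes. For amd1 the difference was 0.42 ± 0.14 (1.34-fold, adjusted p = 0.0169), with overlapping pools. This call of amd1 was lost without any 1 of the 0% female R3, 25% female R2, 0% male R1 and 25% male R3 pools (0.39 to 0.41, adjusted p 0.0511 to 0.0659) and with the arrays scaled to the same spread (0.30, adjusted p = 0.265).

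**Figure D4:**
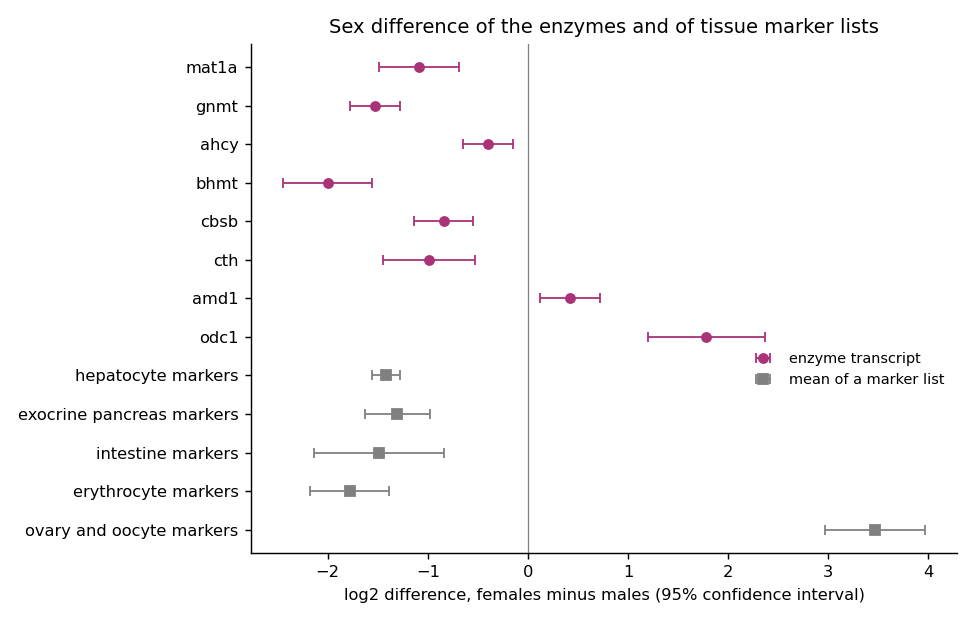
Log2 difference between females and males for each enzyme transcript (circles) and for the mean of tissue marker lists (squares), with 95% confidence intervals. The hepatocyte markers lie at -1.42, between gnmt and mat1a, and the ovary and oocyte markers at 3.47.

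The sex differences stood beside the marker lists. Hepatocyte markers differed by -1.42, exocrine pancreas by -1.30 (15 of 16 genes lower), intestine by -1.49 (10 of 13 lower) and erythrocytes by -1.78 (6 of 6 lower). Of the 6 lower enzymes, bhmt and gnmt had values beyond the hepatocyte mean and the other 4 had smaller ones, and these distances were not tested. With the ovary and oocyte score of the pools as a covariate none of the 8 sex differences passed, and only 6 of all genes did. The differences then ran from -1.08 in mat1a to 3.78 in odc1. That score does not overlap between the sexes, and its part in the lost calls was not tested. Sex and the amount of ovarian transcripts in the pools cannot be told apart here. Among the 0% female pools, odc1 was at 0.45 in R3 and 1.84 in R1, whose ovary and oocyte scores were 2.43 and 2.42, and at 2.45 in R2, whose score was 1.09. In the 25% female pools R2, R3 and R4 odc1 was at 0.61, 0.24 and -0.20, with scores of 1.34, 1.79 and 1.34. The 0% female R2 pool had the highest leukocyte score of all pools, 0.68. It was the highest of its group for 7 of the 8 enzymes, while in each of the other groups 1 pool was the highest for 6. Relations of the enzymes to these scores among the female pools were not tested.

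**Figure D5:**
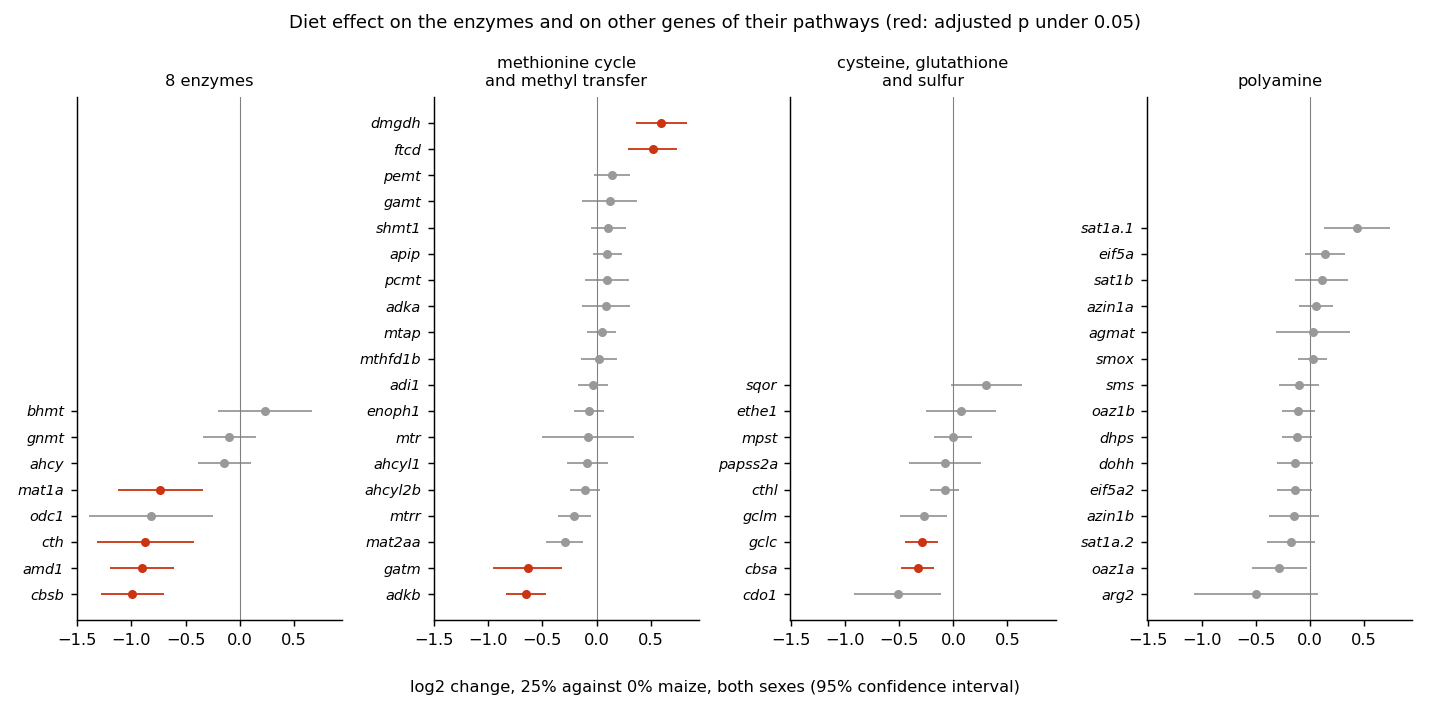
Log2 change on the 25% against the 0% maize diet over both sexes, with 95% confidence intervals, for the 8 enzymes and for the other measured genes of the methionine, cysteine and polyamine lists, with genes past an adjusted p of 0.05 in red. Changes of the 4 red enzymes run from -0.99 to -0.73, and the red genes of the other lists lie between -0.65 and 0.60.

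Neighbouring genes of the pathways moved in both directions. Of 28 other genes of the methionine cycle and methyl transfer, 19 were measured, 2 of which were higher and 2 lower over both sexes, with a median change of 0.02, while 4.94% of all genes passed and 2.8% were lower. Adenosine kinase adkb, which removes the adenosine released by ahcy, fell by 0.65 (adjusted p = 0.00327, limma), and gatm, which makes the creatine precursor guanidinoacetate, fell by 0.63 (0.0302). Dimethylglycine dehydrogenase dmgdh, acting on the product of bhmt, rose by 0.60 (adjusted p = 0.00956), and ftcd, of histidine and folate metabolism, by 0.52 (0.0167). Of the genes related to mat1a and ahcy, mat2aa changed by -0.29 (adjusted p = 0.0576), ahcyl1 by -0.08 and ahcyl2b by -0.11.

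In the list of cysteine, glutathione and sulfur 9 of 15 genes were measured and 2 were lower, where 2.8% of all genes passed as lower. The median of this list was -0.08. The paralog cbsa fell by 0.33 (adjusted p = 0.0207, limma) and gclc, the catalytic subunit of glutamate-cysteine ligase in glutathione synthesis, by 0.29 (0.0363). Cysteine dioxygenase cdo1, at the entry to taurine synthesis, changed by -0.51 (adjusted p = 0.147) and cthl, related to cth, by -0.08 (0.596). In the polyamine list 15 of 23 genes were measured and none passed in either direction, with a median of -0.11. There the outermost values were -0.50 for the arginase arg2 (adjusted p = 0.380) and 0.44 for sat1a.1, a spermidine/spermine acetyltransferase (0.104). The sexes differed in 13 of the 19, 9 of the 9 and 10 of the 15 genes of these lists, 9, 7 and 6 of them being lower in females, where 70.3% of all genes differed and 32% were lower.

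The genes whose levels over the 12 pools were most like the mean of the 8 enzymes were gde1 (Pearson r = 0.941), tefa (0.923), setd3 (0.921), mogat3a (0.917) and kpna3 (0.914). Their diet changes over both sexes lay between -0.52 and -0.24. The pools share arrays, diets and sexes, so these correlations are descriptions of the likeness of levels.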

How the data were processed

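Zebrafish liver RNA pools were compared on 12 two-colour Agilent arrays. The authors quantified spots with GenePix Pro, processed them with limma and deposited 1 log2 ratio per probe (base 2 being assumed). How background was corrected, ratios were normalized and probes were filtered to 12275 is not given in the sources used here. No scanner files were used, and the number of arrays limits the precision.

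Symbols of 10307 probes were updated through RefSeq's gene table (9007 by accession, 976 as current symbols, 317 as synonyms, 7 kept), and 1968 probes had none. Probes of 1 gene were averaged. The model (limma 3.58.1, R 4.3.3) had group terms by sex and diet plus a dye term, and data were whitened for shared pools (variance 2.91 times the array error, tanks 0, by restricted maximum likelihood). Benjamini-Hochberg adjustment ran over all 6684 genes, with a threshold of 0.05. Simulated data with known diet changes, equal in both sexes, served to check the fit of the diet effect over both sexes. They held no tank effect, so they could not show how the fit behaves with one. Alternatives changed shared pools, tanks, replicate numbers, dye, centring, scaling, moderation, probes, threshold and marker covariates, and left out each pool in turn.

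Named are all members, genes of the fixed pathway lists past the threshold, their paralogs, and the 5 genes most like the members. The remaining named genes (cdo1, arg2, sat1a.1, rbp4, apobb.1) were chosen after their values were seen. Members and lists were chosen with earlier results of these data known. Figures were drawn with matplotlib 3.10.9.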

Additional observations from a re-analysis of the deposited data

How the results depend on the processing

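Of the 8 enzymes, 4 passed for the diet over both sexes. The count was 2 with equal tank and pool variance, with a threshold of 0.01 and with the exocrine pancreas score as covariate (cbsb and amd1 each time), 0 with arrays scaled to the same spread, and 2 to 4 without each pool in turn. Of all genes 2.15% passed with equal variances, 1.66% at 0.01, 3.53% with the pancreas score and 0% after scaling. Without each pool 1.3% to 8.11% of all genes passed. In females the count was 0, but 1 with equal tank variance (cbsb), 1 at a threshold of 0.1 and 0 to 1 without each pool. Of all genes 1.38%, 3.31% and 0% to 5.58% passed in females under these settings. In males the count was 0, but 1 with a replicate block (amd1), 2 at a threshold of 0.1, 5 after scaling and 0 to 1 without each pool. Of all genes 0.0598%, 1%, 24.3% and 0% to 0.165% passed in males under these settings. For the difference of the diet effects scaling gave 1 (ahcy), where 27.9% of all genes passed. For the sexes the count of 8 became 0 with the ovary and oocyte, 2 with the exocrine pancreas and 5 with the intestine score as covariate. Of all genes 0.0898%, 3.23% and 38.9% passed between the sexes with these scores. The causes were not tested.

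Over all genes the 330 calls for the diet over both sexes became 1145 with arrays taken as independent, 144 with equal tank variance, 202 without a dye term, 111 and 567 at thresholds of 0.01 and 0.1, and 0 after scaling, where the difference of the diet effects gained 1864. With arrays taken as independent odc1 also passed (adjusted p = 0.0132), and mat1a did not with the intestine score (0.0579). Replicate numbers, which name tanks within a diet, were not taken as pairs. Deviations of same-numbered pools of a sex correlated above 0.1 in 3 of 4 cases and at -0.12 in the other. Of these 4 pools 2 were closest to their own number, and so few cases do not decide whether the numbers pair pools. The replicate block left 4 enzymes called over both sexes. No direction of a called change reversed. With 2 arrays inside a sex, diet effects by sex are the least precise.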
